A study of Homo sapiens with 12 samples.

Results

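The 10 loci examined here are the surroundings of CHST2, PLD1, PTPN3, ACADS, RNF213, CD44, CPLX1, HPCA, CLDN20 and AURKA, which had been listed as places where dexamethasone lowered H3K27ac. They are 10 of 19974 protein-coding genes, and the windows from 25 kb before to 25 kb after their RefSeq spans held 82 of the 103554 peak regions found in the series. H3K27ac is acetylation of lysine 27 of histone H3, a mark of active promoters and enhancers, and it was profiled by CUT&RUN, in which an antibody-guided nuclease releases the marked DNA for sequencing. The cells were RPMI 8226, an established line from a patient with multiple myeloma, a cancer of plasma cells. The 4 groups were CEBPB knockout cells given 10 µM dexamethasone for 2 h, knockout cells given DMSO, scramble control cells given the same drug treatment, and scramble control cells given DMSO, with 3 libraries each. Clonality of the knockout cells is not stated in the labels, and replicate libraries are not tied to separate cultures there. The p-values below therefore reflect the spread between libraries, which may be technical.

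Dexamethasone is a synthetic glucocorticoid used to treat myeloma. It binds the glucocorticoid receptor, a nuclear receptor that raises many genes through its own DNA sites and lowers others, often at enhancers used by AP-1 or NF-kB. CEBPB encodes C/EBPβ, a leucine zipper transcription factor that binds many enhancers. Loss of acetylation at an enhancer commonly accompanies lower activity of that enhancer, but peak lists measure where the mark was called and not the transcripts of nearby genes.

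The members had been picked by measured values. PLD1, PTPN3, ACADS and RNF213 were picked on the drug difference in scramble cells, CD44 and CPLX1 on that in knockout cells, HPCA, CLDN20 and AURKA on the average over both genotypes, and CHST2 on the scramble difference and the average. The measure was the length in a gene's window covered by peaks. The drug difference in the genotype that picked a gene is therefore given below as a description without a test. None of these picks rests on a gene that passed genome-wide adjustment: 0% of the 17155 tested genes were called lower with the drug in knockout cells and 0% in scramble cells, while 0.0175% and 0.0233% were called higher (limma, Benjamini-Hochberg, threshold 0.05). Averaged over genotypes, 0% were called lower and 0.0408% higher. At an unadjusted p under 0.05, 530 genes were lower and 561 higher in knockout cells, and 684 were lower and 632 higher in scramble cells.

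Each library held 41164 to 56421 peaks covering 48.0 to 66.4 Mb, and their read depth is unknown. Covered length was 54.4 ± 3.96 Mb in knockout cells with dexamethasone and 58.2 ± 5.48 Mb in knockout cells with DMSO, against 52.7 ± 6.19 Mb in scramble cells with dexamethasone and 58.9 ± 6.81 Mb in scramble cells with DMSO (mean ± SD, n = 3 each). This mean was lower with the drug in both genotypes. Values at the 10 genes ran the same way at 9 in scramble cells. In knockout cells 6 were lower with the drug and 4 were higher. The part of the library-wide difference in these values was not tested. The window of CEBPB itself held 3.97 to 5.29 kb in knockout and 4.09 to 6.14 kb in scramble libraries, and such coverage does not check a deletion of coding sequence. As a check of the treatment, 5 known glucocorticoid targets together had 41.6 to 44.4 kb with dexamethasone and 32.5 to 37.2 kb with DMSO in knockout cells, and 53.1 to 58.6 kb with dexamethasone and 33.8 to 37.5 kb with DMSO in scramble cells. The 8 plasma cell markers were covered in every group, with sums of 53.4 to 74.1 kb. Marker sums of other cells were 11.3 to 14.9 kb for 4 B cell genes, 8.34 to 18.5 kb for 5 T cell genes, 15.9 to 21.8 kb for 4 myeloid genes and 24.6 to 32.5 kb for 5 epithelial or stromal genes, of which COL1A2 was at 0 in all libraries.

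Start-site sequences of 4 members are printed because the peaks treated these starts in 4 different ways. Each spans 250 bases before to 50 after a RefSeq start (GRCh38.p14), reads 5′ to 3′ on the gene's strand, and has GC boxes (GGGCGG on either strand) in capitals. GC boxes were in 56.3% of 22132 such windows of protein-coding genes, so they are common. The CHST2 window (chr3:143119521-143119820, plus strand) was touched by peaks in 4 DMSO libraries and in 0 of 6 dexamethasone libraries. The RNF213 window (chr17:80260602-80260901, plus strand) was covered in all 12 libraries. The main PTPN3 window (chr9:109498258-109498557, minus strand) was touched in 3 of 6 knockout and 0 of 6 scramble libraries. The CD44 window (chr11:35138921-35139220, plus strand) was touched in 0 libraries, although a peak lay farther inside the gene.
CHST2: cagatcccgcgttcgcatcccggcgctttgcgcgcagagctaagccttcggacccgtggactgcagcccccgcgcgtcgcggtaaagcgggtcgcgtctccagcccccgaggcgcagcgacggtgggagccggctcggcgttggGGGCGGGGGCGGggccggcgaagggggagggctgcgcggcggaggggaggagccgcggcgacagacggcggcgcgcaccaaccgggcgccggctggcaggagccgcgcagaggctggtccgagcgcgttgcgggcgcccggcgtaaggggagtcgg
RNF213: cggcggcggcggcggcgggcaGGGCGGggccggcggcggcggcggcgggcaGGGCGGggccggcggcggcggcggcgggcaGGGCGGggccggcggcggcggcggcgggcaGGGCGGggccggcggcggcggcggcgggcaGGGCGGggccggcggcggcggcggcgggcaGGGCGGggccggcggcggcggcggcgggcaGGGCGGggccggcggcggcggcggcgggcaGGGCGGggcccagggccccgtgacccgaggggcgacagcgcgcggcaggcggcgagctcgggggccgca
PTPN3: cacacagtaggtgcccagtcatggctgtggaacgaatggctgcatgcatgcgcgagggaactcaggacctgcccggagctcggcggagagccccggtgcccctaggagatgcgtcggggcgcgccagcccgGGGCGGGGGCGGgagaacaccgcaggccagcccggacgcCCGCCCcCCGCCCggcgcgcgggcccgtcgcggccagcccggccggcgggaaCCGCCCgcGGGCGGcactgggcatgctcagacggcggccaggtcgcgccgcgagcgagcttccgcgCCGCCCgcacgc
CD44: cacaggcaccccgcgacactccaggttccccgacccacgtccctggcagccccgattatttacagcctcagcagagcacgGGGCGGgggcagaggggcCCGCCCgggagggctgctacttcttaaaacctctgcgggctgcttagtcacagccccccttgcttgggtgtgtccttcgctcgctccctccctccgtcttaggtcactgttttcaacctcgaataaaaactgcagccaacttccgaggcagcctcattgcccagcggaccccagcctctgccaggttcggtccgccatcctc

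The CHST2, RNF213 and PTPN3 starts printed here are rich in G and C, and the CD44 start is near the median. The GC share was 77.7% for CHST2, 94% for RNF213, 78% for PTPN3 and 63.3% for CD44, against a median of 62.3% over all windows. Member windows not printed ranged from 40% at an internal PTPN3 start to 80.3% at HPCA. The RNF213 window repeats a unit that holds a GC box 8 times, the PTPN3 window holds 7, and the CHST2 and CD44 windows hold 2 each. The full glucocorticoid receptor site, searched on either strand, was in 0.294% of all windows and in none of the 11 member windows of the 8 matched genes. The receptor core hexamer AGAACA, in 11.7% of all windows, occurred in the PTPN3 window, where it follows a pair of GC boxes, and in the PLD1 and CLDN20 windows, which are not printed. The AP-1 motif TGANTCA and an NF-kB motif, in 6.15% and 1.94% of all windows, had no match in the 11. The C/EBP motif TTGCNNAA, in 8.69% of all windows, occurred in an internal PTPN3 start window that is not printed. No start sequence is shown for CPLX1 or AURKA.

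**Figure D1:**
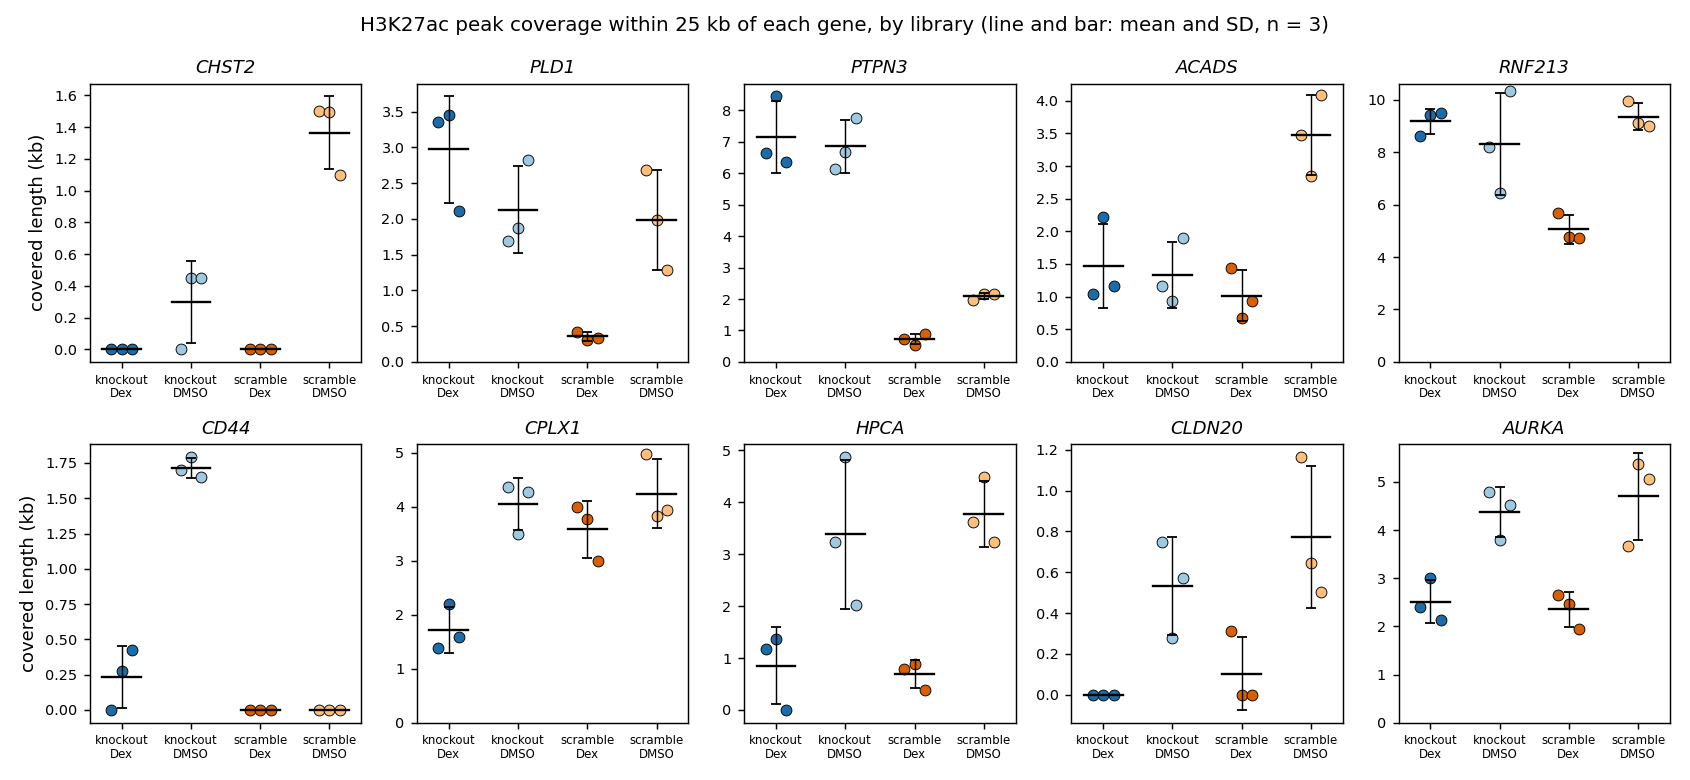
Length covered by H3K27ac peaks (kb, vertical axis, scaled per gene) within 25 kb of each of the 10 genes, with 1 point per library for knockout and scramble cells with dexamethasone (Dex) or DMSO; lines and bars give mean and SD of 3. CHST2 was at 0 in all 6 Dex libraries, and PTPN3 averaged 7.16 kb and 6.86 kb in the 2 knockout groups against 0.723 kb and 2.1 kb in the 2 scramble groups.

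CHST2 encodes a sulfotransferase that adds sulfate to N-acetylglucosamine on glycans. Its window was listed at 0 in all 6 dexamethasone libraries, 3 of each genotype. With DMSO, peaks covered 0, 0.45 and 0.449 kb in knockout cells and 1.502, 1.492 and 1.099 kb in scramble cells. The gene thus showed peaks with DMSO and none with the drug, and the scramble groups did not overlap while the knockout groups shared the value 0. The DMSO coverage came from 3 regions. That at the gene's start (chr3:143119252-143120420) had 0, 450 and 449 bp in knockout and 0, 369 and 1099 bp in scramble cells with DMSO. The other two, over 20 kb away, appeared in 1 scramble DMSO library each. The 3 scramble values near 1 kb were therefore made of different peaks, and 0 of the 3 regions was present in all 3 scramble DMSO libraries. The strongest of them reached 3.17-fold enrichment and a −log10 q of 1.68 (the authors' values).

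PLD1 encodes phospholipase D1, which cleaves phosphatidylcholine to phosphatidic acid. In knockout cells, the genotype that did not pick it, coverage was 3.36, 3.45 and 2.11 kb with dexamethasone and 1.70, 1.87 and 2.83 kb with DMSO. The knockout groups overlapped, and the log2 difference of 0.46 ± 0.22 (SE) was not called (limma adjusted p = 0.789). In scramble cells coverage was 0.42, 0.306 and 0.341 kb with dexamethasone and 2.69, 1.98 and 1.28 kb with DMSO. Every scramble value with the drug lay below every value with DMSO. A region inside the gene (chr3:171654120-171656897) was seen in 11 of 12 libraries. It had 2150, 2253 and 858 bp with dexamethasone and 621, 705 and 2291 bp with DMSO in knockout cells, and 420, 306 and 0 bp with dexamethasone and 985, 1979 and 953 bp with DMSO in scramble cells. The values with the drug were below those with DMSO in scramble cells, and the region carried 61.1% of the scramble loss at PLD1, or 1.06 of 1.74 kb. A 1704 bp peak called in scramble DMSO library 1 alone made up most of the rest.

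PTPN3 encodes a cytoplasmic protein tyrosine phosphatase. Its knockout libraries held 6.65, 8.46 and 6.37 kb with dexamethasone and 6.12, 6.69 and 7.77 kb with DMSO, groups that overlapped (log2 difference 0.17 ± 0.16 SE, limma adjusted p = 0.923). Scramble libraries held 0.74, 0.551 and 0.877 kb with dexamethasone and 1.98, 2.17 and 2.15 kb with DMSO. All of this scramble coverage came from 1 region inside the gene (chr9:109414080-109416878) that was present in all 12 libraries. Its length was 2645, 2440 and 2282 bp with dexamethasone and 2317, 2424 and 2467 bp with DMSO in knockout cells. The same region had 740, 551 and 877 bp with dexamethasone and 1982, 2173 and 2152 bp with DMSO in scramble cells. It remained present with the drug in scramble cells and was shorter there than in each of the other 9 libraries. Its fold enrichment in scramble cells was 3.60, 3.78 and 3.21 with dexamethasone and 3.42, 3.26 and 3.16 with DMSO (the authors' values). The called length was thus lower with the drug, but the fold enrichment was not. Of the losses of covered length described here, that at PTPN3 is the one made entirely of a region seen in every library.

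AURKA encodes Aurora kinase A, which acts at centrosomes and the spindle in mitosis. Its window held 2.41, 3.00 and 2.14 kb with dexamethasone and 4.795, 3.788 and 4.524 kb with DMSO in knockout cells. Scramble cells had 2.65, 2.46 and 1.94 kb with dexamethasone and 3.68, 5.37 and 5.06 kb with DMSO. The groups did not overlap in either genotype. The region at the upper limit of the AURKA span, where this minus-strand gene starts, also spans the start of its neighbour CSTF1 (chr20:56391315-56393242). It was in all 12 libraries, with 1446 to 1928 bp. A second steady region lay at the start of FAM210B. The lower coverage came mainly from 2 weak regions inside the gene. The first, chr20:56372990-56374191, had 298, 1044 and 1202 bp in the scramble DMSO libraries and 0 in the other 9, at 2.5-fold to 2.8-fold enrichment and a −log10 q of at most 1.01. The second, chr20:56382147-56386173, had 0, 752 and 0 bp with dexamethasone and 2580, 1482 and 2287 bp with DMSO in knockout cells, and 343, 0 and 0 bp with dexamethasone and 0, 2179 and 1483 bp with DMSO in scramble cells.

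ACADS encodes the short-chain acyl-CoA dehydrogenase of mitochondrial fatty acid oxidation. Coverage in knockout cells was 1.04, 2.21 and 1.17 kb with dexamethasone and 1.17, 0.928 and 1.90 kb with DMSO (log2 difference 0.15 ± 0.22 SE, limma adjusted p = 0.96). Without knockout dexamethasone library 2 that difference was −0.055. In scramble cells it was 1.44, 0.668 and 0.935 kb with dexamethasone and 3.48, 2.86 and 4.09 kb with DMSO. The knockout groups overlapped and the scramble groups did not. The steadiest region in the window lay at the neighbour UNC119B (chr12:120709816-120711694, all 12 libraries). The ACADS start itself (chr12:120725827-120727033) was covered in scramble DMSO library 3 alone. Of the 2.56 kb lost in scramble cells, 16.6% was in regions that all 3 DMSO libraries held.

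RNF213 encodes a very large AAA+ ATPase and E3 ubiquitin ligase. Its knockout libraries held 8.62, 9.41 and 9.48 kb with dexamethasone and 8.20, 6.43 and 10.3 kb with DMSO (log2 difference 0.27 ± 0.12 SE, limma adjusted p = 0.786). Its scramble libraries held 5.70, 4.76 and 4.71 kb with dexamethasone and 9.96, 9.10 and 9.01 kb with DMSO. The 3 scramble dexamethasone values were the lowest of the 12. Its start region (chr17:80259576-80261380), which contains the printed window, overlapped between treatments in scramble cells, with 1408, 1292 and 1393 bp with dexamethasone and 1290, 1328 and 1451 bp with DMSO. In knockout cells it had 1631, 1673 and 1547 bp with dexamethasone and 1307, 1408 and 1399 bp with DMSO, so the knockout lengths with the drug were higher. Its fold enrichment in knockout cells ran the other way. It was 2.82, 3.21 and 2.89 with dexamethasone and 3.30, 3.56 and 3.75 with DMSO (the authors' values). Of the 4.58 kb lost in scramble cells, 7.72% lay in regions that all 3 DMSO libraries held and 2.22 kb in regions that 1 of them held. A weak region in the neighbour SLC26A11 (chr17:80244228-80248990) ran the other way in knockout cells, with 1796, 617 and 820 bp with dexamethasone and 0 in the 3 DMSO libraries. In scramble cells it had 341, 0 and 0 bp with dexamethasone and 2118, 997 and 0 bp with DMSO.

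CD44 encodes the cell surface receptor for hyaluronan. A single region of the gene (chr11:35143653-35145688), downstream of the printed start, held all of the coverage. It had 0, 274 and 427 bp with dexamethasone and 1700, 1792 and 1653 bp with DMSO in knockout cells, and was listed at 0 in all 6 scramble libraries. The knockout groups did not overlap. The scramble drug difference of 0 (limma adjusted p = 1) compares libraries that all lacked the peak. The region reached 4.35-fold enrichment and a −log10 q of 3.86, the authors' values.

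CLDN20 encodes a claudin, a membrane protein of the tight junction family, and its span lies inside that of TFB1M. Coverage was listed at 0 with dexamethasone in all 3 knockout libraries and was 0.749, 0.276 and 0.573 kb with DMSO. In scramble cells it was 0.31, 0 and 0 kb with dexamethasone and 1.17, 0.647 and 0.504 kb with DMSO. The groups did not overlap in either genotype, but all values were small. The most frequent of its 5 regions (chr6:155239783-155240972) lies in TIAM2 and TFB1M and had 749, 0 and 573 bp in knockout and 0, 647 and 504 bp in scramble cells with DMSO, and 0 in the 6 dexamethasone libraries. The CLDN20 span itself was touched by 1 peak in 1 library.

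CPLX1 encodes complexin 1, which binds the SNARE complex that fuses vesicles. In scramble cells, the genotype that did not pick it, coverage was 3.99, 3.77 and 2.99 kb with dexamethasone and 4.97, 3.83 and 3.93 kb with DMSO (log2 difference −0.08 ± 0.15 SE, limma adjusted p = 0.93). In knockout cells it was 1.38, 2.20 and 1.58 kb with dexamethasone and 4.36, 3.49 and 4.28 kb with DMSO. The scramble groups overlapped and the knockout groups did not. A strong region at the neighbour LOC124900163 (chr4:780910-782618) was in all 12 libraries with 1338 to 1596 bp, so most of what remained in knockout cells with the drug was this neighbour's region. A region inside CPLX1 (chr4:799040-799602) had 0, 305 and 0 bp with dexamethasone and 397, 435 and 380 bp with DMSO in knockout cells. In scramble cells it had 0, 462 and 407 bp with dexamethasone and 439, 399 and 344 bp with DMSO. Another (chr4:792220-793226) was called in 0 of 6 knockout and 5 of 6 scramble libraries.

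HPCA encodes hippocalcin, a neuronal calcium sensor. Coverage was 1.17, 1.37 and 0 kb with dexamethasone and 3.24, 4.87 and 2.02 kb with DMSO in knockout cells. It was 0.796, 0.889 and 0.392 kb with dexamethasone and 3.61, 4.48 and 3.23 kb with DMSO in scramble cells. The groups did not overlap in either genotype. None of its 13 regions was in all 12 libraries. The most frequent (chr1:32875612-32879009), between FNDC5 and HPCA, had 404, 356 and 0 bp with dexamethasone and 0, 368 and 0 bp with DMSO in knockout cells, and 361, 0 and 0 bp with dexamethasone and 1917, 2070 and 1472 bp with DMSO in scramble cells. That region was shorter with the drug in scramble cells, and it was short or absent in all knockout libraries. The lower knockout coverage at HPCA came from other peaks, among them one inside the gene (chr1:32886584-32888814) called in knockout DMSO libraries 1 and 2 alone.

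**Figure D2:**
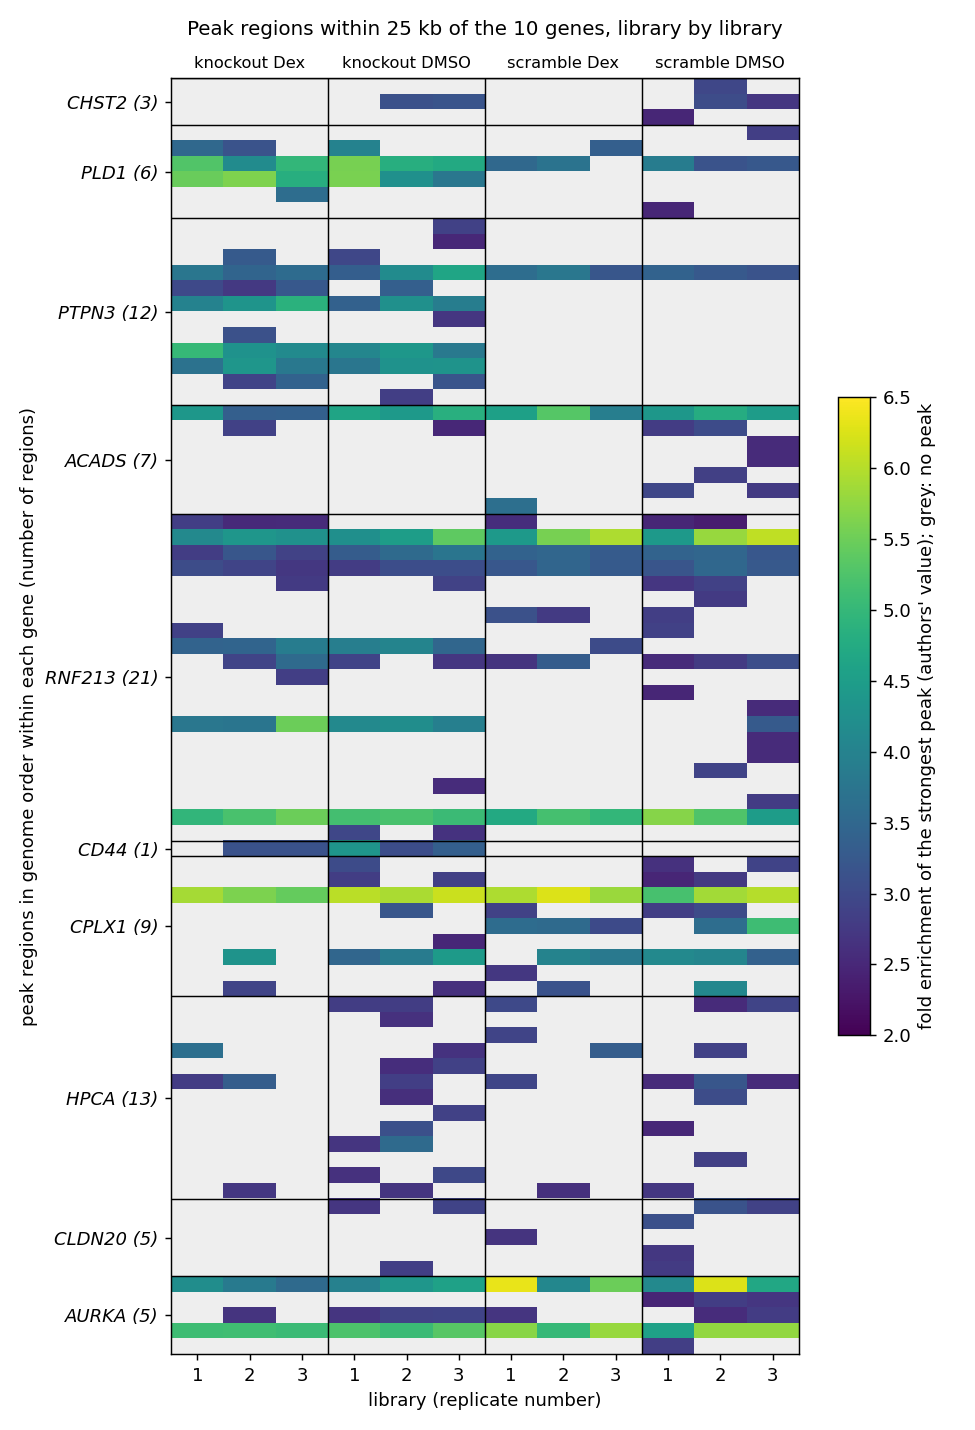
Each row is 1 of the 82 peak regions near the 10 genes (vertical axis, grouped by gene) and each column 1 library, with knockout columns left of scramble columns; colour is the authors' fold enrichment of the strongest peak, and grey marks no peak. Only 9 rows are filled in all 12 columns, 33 are filled in 1 column, and PTPN3 has 3 rows filled in all 6 knockout columns and in no scramble column.

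Region by region, outright loss as defined here was rare over the whole series, and so it was near the listed genes. Its rarity is therefore not a feature of these loci. A region is called lost where all 3 DMSO libraries held it and 0 of 3 dexamethasone libraries did. In knockout cells 0 of the 82 regions were lost and 1 was gained, against 0.54% lost and 0.305% gained over all 103554 regions. In scramble cells 1 was lost and 0 were gained, against 0.612% lost and 0.353% gained over all regions. The lost region was the first AURKA region above and the gained one lay in SLC26A11. By covered length, 4 regions were lower and 2 higher with the drug without overlap of the groups in knockout cells (2.94% and 2.84% of all regions), and 4 were lower and 0 higher in scramble cells (2.93% and 1.89%). The 4 in knockout cells were at CD44, the second AURKA region, CPLX1 and a PTPN3 region, and the 4 in scramble cells were at PLD1, PTPN3, HPCA and the first AURKA region.

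Covered length of the whole window was lower without overlap with the drug at 5 of the 10 genes in knockout cells (CD44, CPLX1, HPCA, CLDN20 and AURKA). In scramble cells it was lower in this way at 8 (all but CD44 and CPLX1). Of all tested genes 8.94% were lower in this way in knockout cells and 8.97% in scramble cells. None of the 10 was higher without overlap, as were 3.76% of all genes in knockout and 2.07% in scramble cells. Since the picks used these contrasts, nothing is read from the counts. HPCA, CLDN20 and AURKA were lower in both genotypes, with log2 drug differences of −1.62 and −1.73 at HPCA, −0.91 and −1.13 at CLDN20, and −0.62 and −0.71 at AURKA in knockout and scramble cells.

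**Figure D3:**
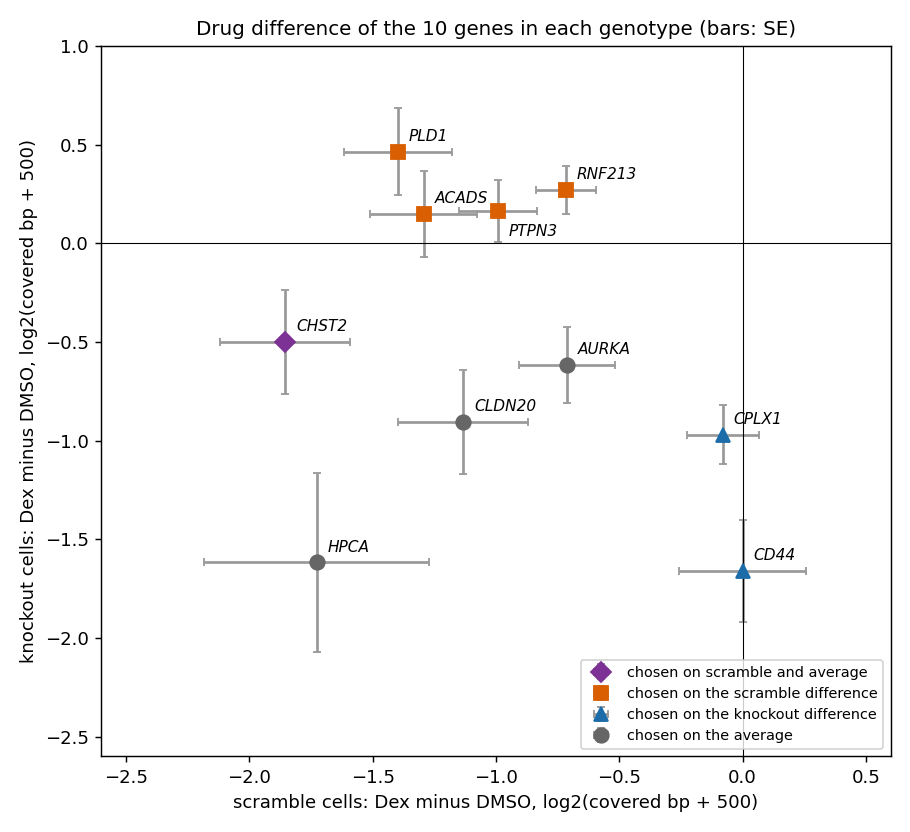
Difference in log2(covered bp + 500) between dexamethasone and DMSO in scramble cells (horizontal axis) and knockout cells (vertical axis) for the 10 genes, with SE bars and markers by how each gene was picked. The 4 genes picked on scramble cells lie at 0.15 to 0.46 in knockout cells, CPLX1 and CD44 lie at −0.08 and 0 in scramble cells, and HPCA, CLDN20, AURKA and CHST2 lie below 0 in both.

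The part of the comparison that the picks did not use gave 0 calls. Over all tested genes, 0.0175% were called in knockout cells and 0.0233% in scramble cells. In simulated libraries the fit called 50% of randomly drawn genes given a log2 difference of −1 in scramble cells, and 84% at −2. No difference was simulated in knockout cells or for the listed genes as such. The count of 0 calls alone therefore does not show that a loss with the drug was absent in the other genotype. The 4 genes picked in scramble cells had log2 differences of 0.15 to 0.46 in knockout cells, all higher with the drug. By limma with adjustment over all genes, 0 of the 4 were called there. Among them 1, RNF213, had an unadjusted p under 0.05, with the higher value under the drug, as 1091 of all 17155 tested genes had such a p in either direction. Of the 2 genes picked in knockout cells, CPLX1 was not called in scramble cells (limma unadjusted p = 0.60). CD44 had no peak in its window in any scramble library, so it could not have been called there and tests nothing. The difference between the drug responses of the genotypes was itself used by these picks and was not tested. Its value, knockout minus scramble drug difference on the log2 scale, was 1.86 at PLD1, 1.44 at ACADS, 1.35 at CHST2, 1.16 at PTPN3, 0.99 at RNF213, −1.66 at CD44 and −0.89 at CPLX1, and 0.09 to 0.23 at AURKA, HPCA and CLDN20.

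**Figure D4:**
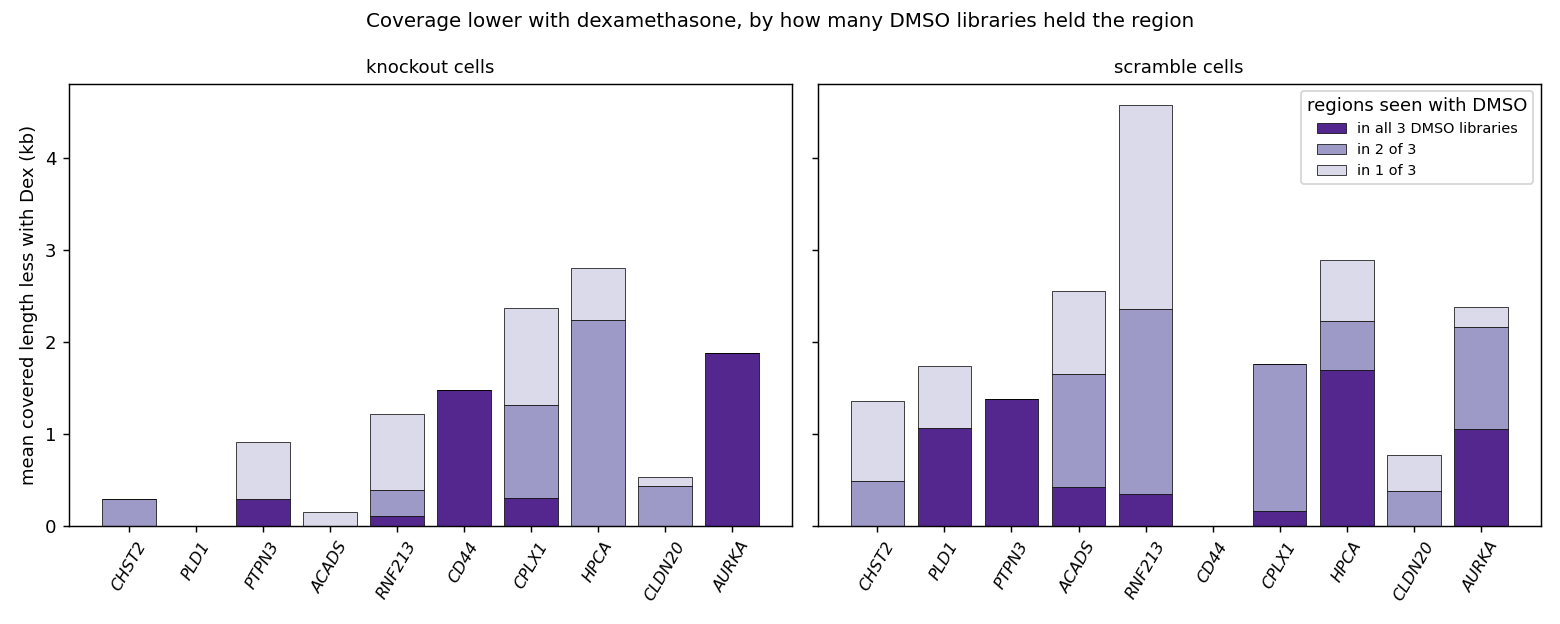
Mean covered length lost with dexamethasone (kb, bars from 0) at each gene in knockout (left) and scramble (right) cells, divided by whether all 3, 2 or 1 of the DMSO libraries held the region. At PTPN3 in scramble cells and at CD44 and AURKA in knockout cells the bar is made wholly of regions in all 3 DMSO libraries, and RNF213 in scramble cells has 0.354 kb of 4.58 kb in such regions.

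About equal parts of the lost length lay in regions that all 3, 2 or 1 of the DMSO libraries held. Summed over regions with a lower mean, 11.7 kb were lost in knockout cells, of which 34.9% lay in regions that all 3 DMSO libraries held, 36.7% in those of 2 and 28.4% in those of 1. In scramble cells 19.4 kb were lost, of which the shares were 31.6%, 37.8% and 30.6%. Regions with a higher mean added 4.39 kb in knockout and 1.83 kb in scramble cells. The 9 regions found in all 12 libraries together covered 12.1 ± 0.359 kb with dexamethasone and 11.5 ± 0.285 kb with DMSO in knockout cells, and 9.74 ± 0.568 kb with dexamethasone and 11.8 ± 0.632 kb with DMSO in scramble cells (mean ± SD, n = 3 each). The other 73 regions covered 14.0 ± 3.43 kb with dexamethasone and 21.9 ± 3.30 kb with DMSO in knockout cells, and 4.74 ± 2.58 kb with dexamethasone and 20.3 ± 1.47 kb with DMSO in scramble cells. These sums are made of the covered lengths that picked the genes, so they describe the picks and do not measure a drug effect.

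The regions near the 10 genes were on the weak side of the series. Of the 82, 68.3% never reached a −log10 q of 2 in any library, against 52.4% of all regions, and 40.2% were seen in 1 library, against 31.8%. Those in all 12 libraries made up 11.0%, against 23.9%. The median over regions of the highest fold enrichment was 2.76 for those in 1 library and 5.68 for those in all 12. Over all regions these medians were 2.74 and 5.24, so within these classes the member regions were not weaker. Among the 82, 13 were in at least 2 DMSO libraries and in no dexamethasone library, and 0 were the reverse. Counted in the same way, these made up 4.86% and 1.98% of all regions in the series. The genes were picked for lower coverage with the drug, so nothing is read from these counts. Per kb of window, mean coverage over the 12 libraries ran from 3.40 bp at CD44 and 5.63 bp at CLDN20 to 47.8 bp at AURKA, and the median tested gene had 42.4 bp.

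The member region nearest to the limit inside it lay 24913 bp from RNF213 (chr17:80423707-80424409) and was in 2 knockout DMSO libraries. The nearest outside lay 25643 bp from ACADS (chr12:120698518-120700183) in the neighbour MLEC, and was in 3 knockout libraries and 1 scramble library. The windows also reached into neighbours: MLEC, UNC119B and SPPL3 at ACADS, SLC26A11 and ENDOV at RNF213, SLC1A2 at CD44, PCGF3, LOC124900163 and GAK at CPLX1, FNDC5 and TMEM54 at HPCA, TIAM2 and TFB1M at CLDN20, and FAM210B, CSTF1 and CASS4 at AURKA.

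The 10 genes were not picked on genotype, but the libraries that picked them also enter it. Averaged over treatments, limma called the knockout difference at 5 of the 10, 3 higher and 2 lower, where 15.1% of all genes were called, 8.1% higher and 6.96% lower. At 4 of the 5 (PLD1, CPLX1, CD44 and CHST2) the difference was set by the group whose low or high values had picked the gene, so nothing is read from the count and no p is given for them. PTPN3 was higher in knockout cells by a log2 difference of 2.03 ± 0.11 (SE), by 2.61 with dexamethasone and 1.45 with DMSO. The scramble values that picked PTPN3 enter this difference too, so no p is given for it either. ACADS and RNF213, also picked on scramble values, were not called. HPCA, CLDN20 and AURKA had limma adjusted p of 0.52 to 0.84.

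At the other 4 genes the difference came mainly from 1 treatment. At PLD1 the log2 difference between knockout and scramble was 1.94 with dexamethasone and 0.08 with DMSO, and coverage averaged 0.356 kb in scramble cells with the drug and 1.98 to 2.97 kb in the other 3 groups. At CPLX1 it was −0.98 with dexamethasone and −0.09 with DMSO, with 1.72 kb in knockout cells with the drug and 3.58 to 4.24 kb elsewhere. At CD44 it was 0.44 with dexamethasone and 2.10 with DMSO, and at CHST2 it was 0 with dexamethasone and −1.35 with DMSO. CD44 and CHST2 were listed at 0 in 7 of 12 libraries each. The averaged values were 1.01 ± 0.16 at PLD1, −0.54 ± 0.10 at CPLX1, 1.27 ± 0.18 at CD44 and −0.68 ± 0.19 at CHST2 (log2 ± SE), and the CHST2 call was lost in 12 of 21 alternatives, 8 of which left out 1 library.

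**Figure D5:**
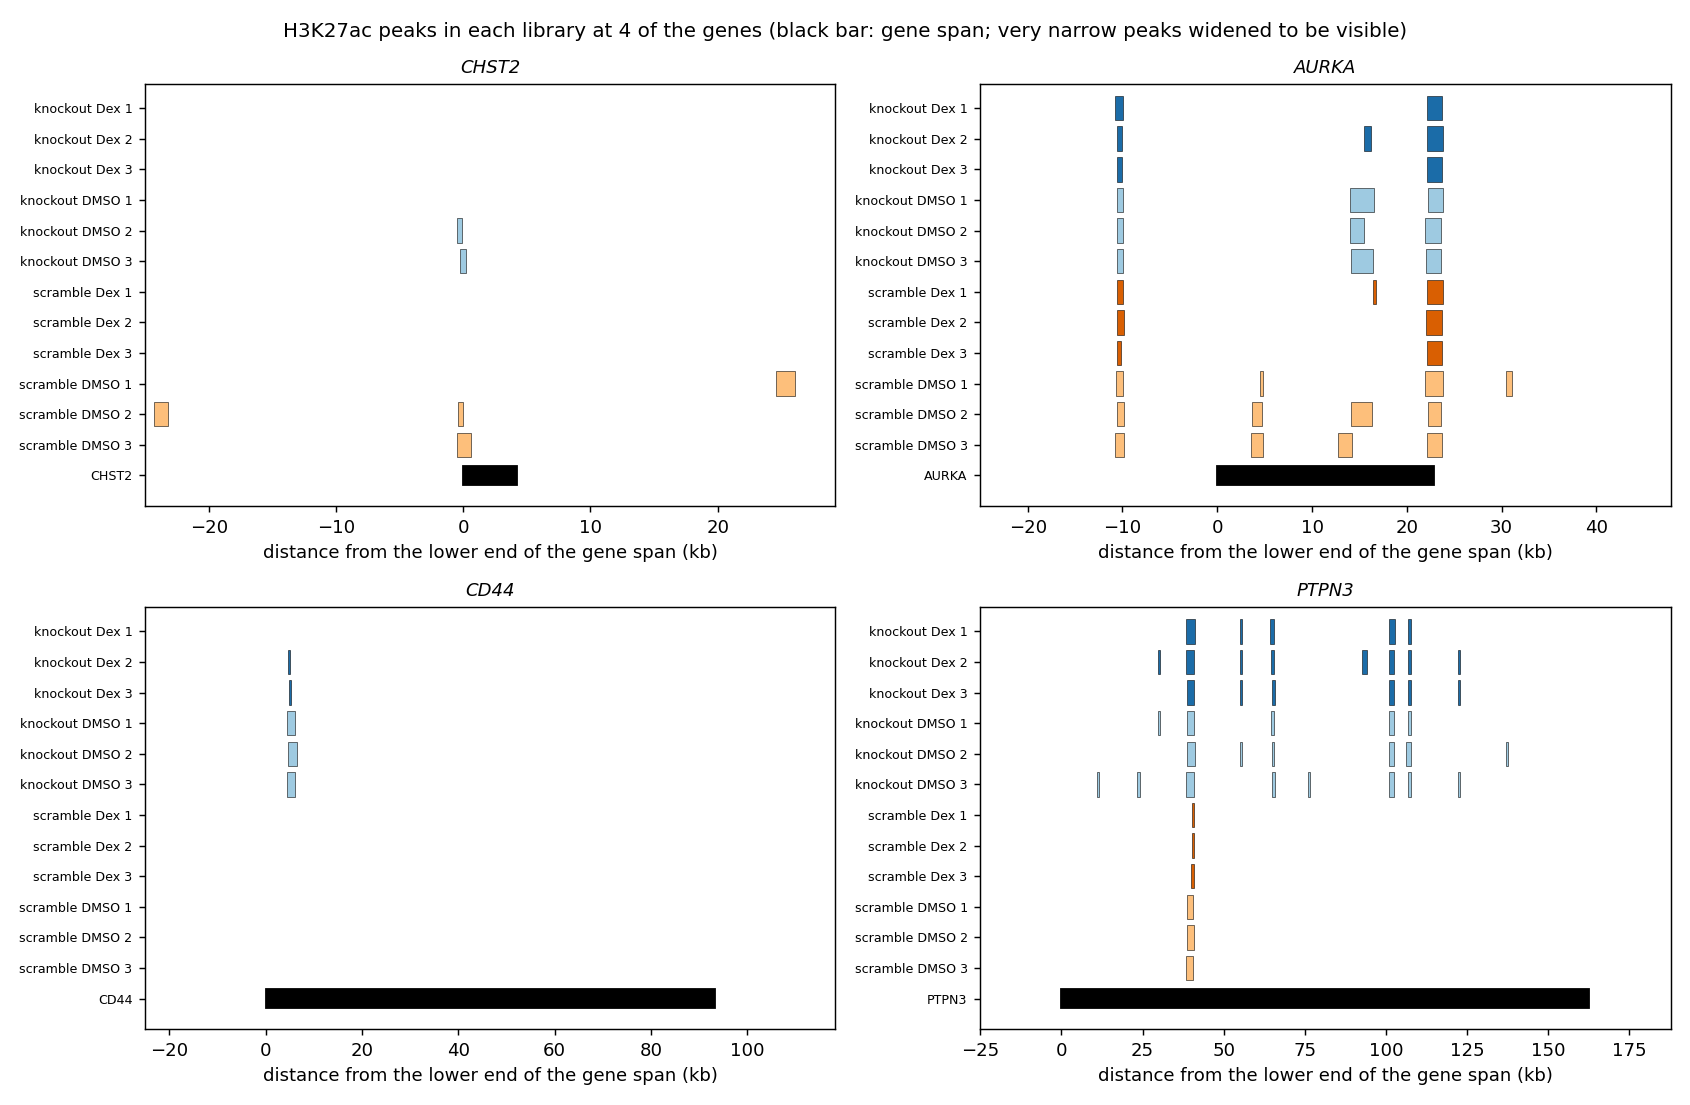
Peaks of each library (rows, knockout above scramble) at CHST2, AURKA, CD44 and PTPN3, with distance from the lower end of the gene span in kb on the horizontal axis and the gene as a black bar. PTPN3 shows the region shared by all 12 libraries and 3 regions in all 6 knockout libraries alone, and CD44 shows 1 region in 5 knockout libraries.

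The PTPN3 difference was visible as separate regions. Of the 82 regions, 4 were in all 6 knockout and 0 of 6 scramble libraries, against 0.992% of all regions, and 0 were in all 6 scramble and 0 of 6 knockout libraries, against 1.54%. Inside PTPN3 lay 3 of the 4. The largest (chr9:109476598-109478418) had 1689, 1551 and 1558 bp with dexamethasone and 1682, 1516 and 1620 bp with DMSO in knockout cells. The next (chr9:109440010-109441608) had 1336, 999 and 1076 bp with dexamethasone and 1089, 665 and 853 bp with DMSO. The last (chr9:109481974-109483439) had 678, 660 and 699 bp with dexamethasone and 707, 1335 and 859 bp with DMSO. The other one lay inside PLD1 (chr3:171709512-171710701), with 840, 756 and 997 bp with dexamethasone and 599, 1166 and 535 bp with DMSO. These 4 regions reached 4.36-fold to 5.63-fold enrichment, and the treatments overlapped within knockout cells except at the last PTPN3 region, whose 3 values with the drug were below the 3 with DMSO. Inside RNF213 a pair of regions was in all 6 knockout libraries and in 1 scramble library each (chr17:80288031-80289255 and chr17:80334896-80336028).

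No relative of the 10 genes was called with the drug. Of 120 listed relatives, such as other sulfotransferases, phosphatases, acyl-CoA dehydrogenases, claudins and mitotic kinases, 108 were tested. With dexamethasone 50 were lower and 57 higher in knockout cells, and 48 were lower and 58 higher in scramble cells, with 0 called in either. Their median log2 drug differences were 0.0037 in knockout and 0.023 in scramble cells, beside 0.021 and 0.031 over all genes. The smallest p among them in scramble cells was that of SNAP25, a SNARE protein of the complexin list, at −1.20 ± 0.26 (SE, limma adjusted p = 0.204). By genotype 14 of the 108 were called, 7 higher and 7 lower, a share of 12.96% beside 15.1% of all genes. Higher in knockout cells were PTPN13 by 2.99 (limma adjusted p = 1.8e-06) and PTPN5 by 1.84, both tyrosine phosphatases, the claudins CLDN16 by 3.46 and CLDN1 by 2.26, the calcium sensors NCALD by 1.20 and VSNL1 by 0.50, and the sulfotransferase CHST11 by 0.40. Lower were the sulfotransferases CHST9 at −1.38 (limma adjusted p = 7e-05) and CHST8 at −0.85, the claudin CLDN3 at −0.97, KCNIP1, a calcium sensor of potassium channels, at −0.89, RDX, which links membrane proteins to actin, at −0.78, and the phosphatases PTPN12 at −0.49 and PTPN6 at −0.30. The limma adjusted p of these 14 ran up to 0.044. CLDN16 and CLDN1 had equal coverage in scramble cells with DMSO, 0.473 ± 0.819 kb (mean ± SD). Their windows may share peaks, so these calls may not be separate.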

How the data were processed

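H3K27ac was profiled by CUT&RUN on 100000 cells per assay in 12 libraries, per the labels' protocols. Reads were aligned to hg38 and peaks called with Bowtie2 2.4.2 and MACS3 3.0, per the submitters' processing notes. The authors deposited 1 broad peak list per library, with positions (a unit recorded as other), a score of 10 times −log10 q in at least 99.96% of peaks, fold enrichment (a ratio) and −log10 p and −log10 q. A control library is not given in the sources used here. The lists hold no counts, so depth is unknown and no counting interval is given.

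The autosomes and X were kept, and 213 to 296 peaks per library lay elsewhere. For all 19974 protein-coding genes in the RefSeq table, covered base pairs within 25 kb of the span were added up; long genes have long windows, and neighbouring windows can overlap. The 17155 genes covered in at least 3 libraries were tested on quantile-normalised log2(bp + 500) with limma 3.58.1 in R 4.3.3 (trend and robust empirical Bayes, group means, 8 residual degrees of freedom), with Benjamini-Hochberg adjustment over all of them at 0.05. Log2 differences understate changes at low coverage because of the added 500 bp. Regions are peaks of the 12 libraries merged at 1 bp overlap, and a library holds a region where 1 of its peaks touches it. Start windows were matched by symbol for 8 of the 10 genes, which gave 11 windows. Scripts were tested on simulated data and ran in Python 3.11.15 with NumPy 2.4.6, pandas 2.3.3 and Matplotlib 3.10.9.

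The members and lists were chosen with earlier results of these data known. All 10 members are named, as are genes in their windows or nearest to a lost region, relatives called in a tested contrast, and a relative of smallest p where stated. Alternatives were windows of 5 and 100 kb, peaks with −log10 q of at least 2 or 5, equal covered length, an offset of 100 bp, covered in at least 1 or 6 libraries, no normalisation, scaling to total covered length, limma without trend and robust settings, a fit on 1 genotype alone, the replicate block, other region definitions and leaving out each library.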

Additional observations from a re-analysis of the deposited data

How the results depend on the processing

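Among recalculated values of single genes, 343 kept their direction and side of the threshold, 13 lost a call, 7 gained one and 12 changed sign. The drug tests in the genotype not used by the pick gave 0 calls under every alternative run, including leaving out each library (0 to 0). CD44, with no scramble peak in its 25 kb window, could give none in that window. The 5 genotype calls became 3 with peaks of −log10 q of at least 5 (6 genes left) and 3 with coverage in at least 6 libraries (8 left), and 4 to 6 without 1 library. Lost regions in scramble cells, 1 in the report, numbered 0 with −log10 q of at least 2 or 5 and with equal covered length, 2 with peaks within 500 bp merged or in 500 bp bins, and 1 to 4 without 1 library (2 without scramble dexamethasone library 1, and 3, 3 and 4 without scramble DMSO libraries 1, 2 and 3). In knockout cells, 0 in the report, they numbered 1 in the 100 kb window, 1 where 50% of a region had to be covered, 5 in 500 bp bins and 0 to 4 without 1 library (2 without dexamethasone library 2, and 2, 4 and 2 without DMSO libraries 1, 2 and 3). Signs changed as follows, and the cause was not tested. The knockout drug difference turned to −0.63 at PTPN3 and −1.07 at ACADS with −log10 q of at least 5, and −0.055 at ACADS without knockout dexamethasone library 2. The scramble drug difference of CPLX1 was 0.26 in the 5 kb window and 0.043 at equal covered length. The genotype difference was 0.44, 0.074, 0.14 and 0.0082 at HPCA (5 kb, 100 kb, without knockout dexamethasone library 3, without knockout DMSO library 3), 1.06 at CLDN20 (100 kb), −0.0080 at RNF213 (−log10 q of at least 5) and 0.016 at AURKA (without scramble DMSO library 2). Without 1 library the lowest and highest values were −0.055 and 0.30 for the knockout drug difference of ACADS, and −0.31 and 0.14 at HPCA and −0.17 and 0.016 at AURKA for genotype. CHST2 lost its genotype call at −0.18 (5 kb), −0.063 (100 kb) and −0.027 (equal covered length), and CPLX1 at −0.16 (−log10 q of at least 5). Replicate numbers did not pair the samples: same-numbered libraries correlated at −0.066 to 0.0955, 0 of 12 comparisons over 0.1 and 6 of 12 highest with their own number. With the replicate block the calls stayed at 0, 0 and 5.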
